A study of Mus musculus with 8 samples.

Results

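The 10 circadian clock genes Clock, Arntl (Bmal1 in newer annotations), Per1, Per2, Per3, Cry1, Cry2, Nr1d1, Nr1d2 and Dbp were followed in RNA-seq libraries of mouse pancreatic islets. They were taken by symbol from the 55414 gene identifiers of the count tables, and all 10 were found and passed the filter on low counts, as did 20509 genes in all. The islets came from C57BL/6 mice at 5 weeks of age, in 2 groups of 4 libraries. Every mouse of both groups carried the ATF4 transgene (ATF4 TG, heterozygous). The TG group was Ins2 cre(+/-), with a Cre recombinase named after the insulin 2 gene, and the WT group was Ins2 cre(-/-), so the WT mice are Cre-negative carriers of the transgene and not mice without it. No Cre-positive group without the transgene was analysed here. Nothing in the labels ties a library to a separate animal, so p-values cover only the spread between these libraries, which may be technical. The labels used here give no time of day for the islet collection.

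The clock is a feedback loop of transcription that nearly every cell runs through once a day. CLOCK and BMAL1 form a pair that binds E-box sequences and switches on the Per, Cry, Nr1d and Dbp genes. The PER and CRY proteins then block that pair, and the products of Nr1d1 and Nr1d2 (REV-ERB alpha and beta) repress Arntl through ROR elements, so Arntl transcripts peak when those of Dbp and Nr1d1 are at their trough. In islets the clock is known for timing the release of insulin over the day.

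Reads counted to genes numbered 16521087 to 22499999 per library. Markers of other cell types differed between the groups. The summed level of 10 endothelial markers was 1144 to 1183 CPM (counts scaled by the effective library size) in TG and 452 to 797 CPM in WT, and that of 10 stromal and mural markers was 3348 to 6485 CPM and 844 to 2798 CPM. All 10 endothelial and 6 of 10 stromal markers were called higher in TG, and no endothelial or stromal marker was at 0 in any library. The 6 ductal markers summed to 752 to 1019 CPM in TG and 369 to 423 CPM in WT, with 4 called higher, and 7 immune markers to 94.2 to 342 CPM and 37.7 to 72.5 CPM, with 4 of the 6 tested called higher. The part of ductal and immune cells in the results was not tested. The 5 islet hormone genes summed to 75540 to 102147 CPM in TG and 111822 to 145776 CPM in WT, and all 5 were detected in every library. Of these 5, Ins1 (log2 fold change −1.59) and Ins2 (−1.05) were called lower, while Gcg (0.42), Ppy (0.14) and Sst (−0.08) were not called. Atf4 (ENSMUSG00000042406), as labelled, was lower in TG at 261 ± 19.8 CPM against 352 ± 21.1 CPM (SD, n = 4 each). Whether transgene transcripts fall under this gene is not known, so it does not check the labels. In bulk tissue fewer cells of a type and less RNA per cell cannot be told apart.

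Between TG and WT few clock genes passed the test, and for several the intervals were wide. Only 1 of the 10, Clock, was called lower at an adjusted p under 0.05 (edgeR quasi-likelihood test, two-sided, adjusted over all tested genes) and 0 were called higher. Of all 20509 genes tested, 20.1% were called, and 8.06% of all tested genes were called lower, so 1 of 10 lies near the share in all genes. An unadjusted p under 0.05 was reached by 2 members, Clock and Cry2. The median log2 fold change over the 10 genes was −0.18, beside −0.00 over all tested genes. The TG and WT libraries did not overlap for 1 of the 10 genes, where 22.6% of all tested genes did not overlap.

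Of the core activators, Clock (ENSMUSG00000029238, chromosome 5) encodes the histone-acetylating partner of BMAL1. It measured 214, 193, 200 and 211 CPM in TG replicates 1 to 4 and 313, 279, 252 and 244 CPM in WT replicates 1 to 4. Every TG library lay below every WT library. The mean was 205 ± 9.69 CPM against 272 ± 31.1 CPM (SD, n = 4 each), 1.33-fold lower in TG (log2 fold change −0.41, SE 0.091, adjusted p = 0.00513, edgeR). The call was lost with the endothelial and stromal markers as a covariate (−0.37, SE 0.21, adjusted p = 0.574, edgeR), and their summed level also differed between the groups without overlap.

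Arntl (ENSMUSG00000055116, chromosome 7), which encodes BMAL1, was at 44.7, 17.6, 28.1 and 15.2 CPM in the TG libraries and at 46.7, 17.2, 44.7 and 8.80 CPM in the WT libraries. High and low libraries were found in both groups, and the groups overlapped over most of their range. Within WT alone the highest library held 5.31 times the level of the lowest. Between the groups it differed by −0.16 on the log2 scale (SE 0.63, 95% interval −1.68 to 1.36, adjusted p = 0.902, edgeR), an interval wide enough to hold a change of more than 2-fold in either direction. With the endothelial and stromal covariate it was −2.50 (SE 1.078, adjusted p = 0.512) and with the acinar covariate −0.61 (SE 0.36, adjusted p = 0.345, edgeR). With the replicate number as a block, though no paired design is stated, it was −0.016 (SE 0.19, adjusted p = 0.970, edgeR).

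**Figure D1:**
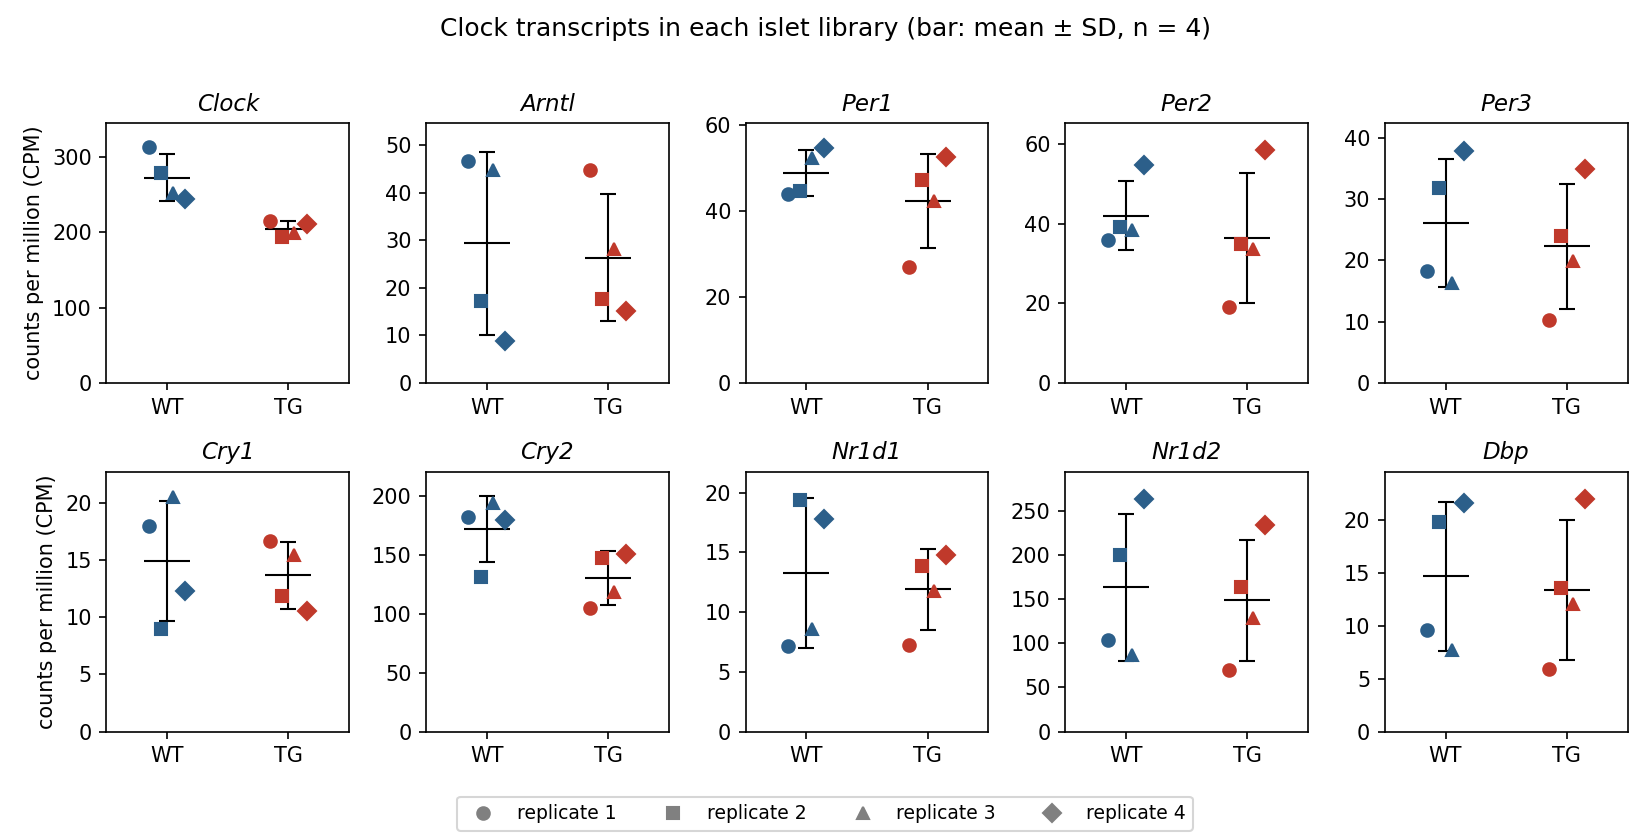
Each panel plots the level of a clock gene in CPM (vertical axis, from 0) for the 4 WT and 4 TG libraries, with marker shapes for the replicate number and bars for the mean ± SD. Clock is the gene whose groups do not overlap, and Arntl, Per3, Nr1d1, Nr1d2 and Dbp spread more than 2-fold within each group.

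Among the repressors, the Period genes were spread within both groups. Per1 (ENSMUSG00000020893, chromosome 11), the member that also answers quickly to cyclic AMP and glucocorticoids, measured 27.1, 47.3, 42.4 and 52.6 CPM in TG and 44.0, 44.6, 52.3 and 54.6 CPM in WT. Per2 (ENSMUSG00000055866, chromosome 1), a scaffold of the repressor complex, measured 19.0, 34.9, 33.7 and 58.5 CPM in TG and 35.9, 39.2, 38.5 and 54.7 CPM in WT. Per3 (ENSMUSG00000028957, chromosome 4) measured 10.4, 24.0, 19.95 and 34.9 CPM in TG and 18.3, 31.9, 16.2 and 37.9 CPM in WT. TG replicate 1 was the lowest of the 8 libraries for all 3 genes, and replicate 4 was the highest library of its group for each. The log2 fold changes were −0.21 (95% interval −0.57 to 0.16) for Per1, −0.20 (−0.96 to 0.55) for Per2 and −0.22 (−1.24 to 0.79) for Per3. None passed the test (adjusted p = 0.457, 0.734 and 0.785, edgeR).

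The Cryptochromes carry out repression together with the PER proteins. Cry1 (ENSMUSG00000020038, chromosome 10) measured 16.7, 11.9, 15.5 and 10.6 CPM in TG and 18.0, 8.98, 20.5 and 12.3 CPM in WT, and its high libraries were largely those with high Arntl. Cry2 (ENSMUSG00000068742, chromosome 2) measured 105, 148, 118 and 151 CPM in TG and 182, 131, 194 and 180 CPM in WT. Of the WT libraries only replicate 2 fell inside the TG range for Cry2. At −0.40 on the log2 scale (SE 0.14, adjusted p = 0.0614, edgeR) the difference missed the threshold. Cry2 was called lower under 6 of 19 other settings, among them DESeq2 (−0.41, adjusted p = 0.023) and edgeR without WT replicate 2 (−0.51, adjusted p = 0.0133). Cry1 was not called (−0.13, 95% interval −0.65 to 0.39).

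In the stabilising loop, Nr1d1 (ENSMUSG00000020889, chromosome 11) measured 7.23, 13.9, 11.7 and 14.8 CPM in TG and 7.15, 19.4, 8.61 and 17.8 CPM in WT. Nr1d2 (ENSMUSG00000021775, chromosome 14) measured 70.0, 164, 129 and 234 CPM in TG and 104, 201, 86.5 and 264 CPM in WT. Both genes were low in TG replicate 1 and in WT replicates 1 and 3, the libraries in which Arntl was highest. Their log2 fold changes of −0.15 (95% interval −0.96 to 0.65) and −0.13 (−1.36 to 1.09) did not pass the test (adjusted p = 0.825 and 0.897, edgeR). Nr1d1 shares 8.55% of its exon bases with Thra, the thyroid hormone receptor alpha gene on the opposite strand, in the GENCODE M21 annotation. Whether reads were counted by strand is not stated in these sources, so reads of that stretch cannot be told apart. Thra itself stood at 67.1 ± 6.14 CPM in TG and 52.8 ± 9.73 CPM in WT (SD, n = 4 each; log2 fold change 0.35, adjusted p = 0.067, edgeR).

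The output factor Dbp (ENSMUSG00000059824, chromosome 7), which binds D-box sequences and passes the rhythm on to other genes, measured 5.88, 13.6, 12.1 and 21.9 CPM in TG and 9.56, 19.8, 7.73 and 21.6 CPM in WT. The groups covered nearly the same range (log2 fold change −0.13, SE 0.48, 95% interval −1.26 to 0.995, adjusted p = 0.891, edgeR). Dbp shares 18.0% of its exon bases with Sphk2, a sphingosine kinase gene on the opposite strand. Sphk2 lay between 19.4 and 30.1 CPM in the 8 libraries and so spread less than Dbp.

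Per length, the levels of the 10 genes ran from Per3 to Nr1d2. In WT, Per3 stood at 2.71 ± 1.09 CPM per kilobase of exon, and Nr1d2 at 30.2 ± 15.4 (SD, n = 4). Cry2 (27.2 ± 4.40) and Clock (19.8 ± 2.27) were next below Nr1d2, then Per1 (8.68 ± 0.954) and Per2 (7.18 ± 1.46). Dbp, Cry1, Nr1d1 and Arntl lay between 3.90 and 4.90 and did not differ beyond their SDs of 1.58 to 2.55. The same genes led in TG, where the means ran from 2.32 ± 1.06 for Per3 to 27.6 ± 12.7 for Nr1d2. These levels use the union of annotated exons and understate a gene whose long exons are little used.

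The larger differences were between libraries of the same group. As the deviation of log2(CPM + 0.5) from the group mean, the within-group SD of Arntl was 0.94, a value exceeded by 0.586% of the 11953 tested genes that averaged 5 CPM or more, whose median SD was 0.17. It was 0.75 for Nr1d2, 0.73 for Dbp, 0.65 for Per3 and 0.59 for Nr1d1, each exceeded by less than 2% of those genes (between 0.92% and 1.95%). Per2 (0.50), Cry1 (0.43) and Per1 (0.31) spread less, and Cry2 had an SD of 0.25. Clock, at 0.12, lay below the median gene, as 75.6% of genes spread more.

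Several of these deviations moved together, and Arntl ran opposite to Dbp, Nr1d1 and Nr1d2. Over the 8 libraries Dbp followed Per3 (Pearson r = 0.99), Nr1d2 (r = 0.99), Nr1d1 (r = 0.92) and Per2 (r = 0.85), and ran against Arntl (r = −0.92) and Cry1 (r = −0.87). Arntl ran against Nr1d2 with r = −0.96 and with Cry1 with r = 0.81. The repressor gene Cry1 thus ran with the activator gene Arntl and against Per3 (r = −0.83). Clock and Cry2 had r = −0.25 and r = 0.16 with Dbp. The values are a description over libraries that share their scaling, and no test was made of them. By the log2 ratio of Dbp to Arntl, TG replicates 1 to 4 stood at −2.93, −0.38, −1.21 and 0.53 and WT replicates 1 to 4 at −2.29, 0.20, −2.53 and 1.30. Each group thus held libraries at both ends.

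Among 11318 genes with a symbol that averaged 5 CPM or more, the 5 whose deviations were most like those of Dbp were Per3 (r = 0.993), Nr1d2 (r = 0.991), Zfp869 (r = 0.988), Bzw2 (r = 0.984) and Usp37 (r = 0.983). The clock genes Tef (rank 14), Bhlhe41 (rank 35) and Nr1d1 (rank 79) were also near the top. For Arntl the 5 most alike were Plekho1 (r = 0.991), Ppm1f (r = 0.988), Arl4c (r = 0.982), Lgi4 (r = 0.977) and Dusp6 (r = 0.976), with Nfil3 at rank 38 (r = 0.953). Tef was 1 of the genes most opposed to Arntl, at rank 11316 of 11318. With 8 libraries many genes reach such values.

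**Figure D2:**
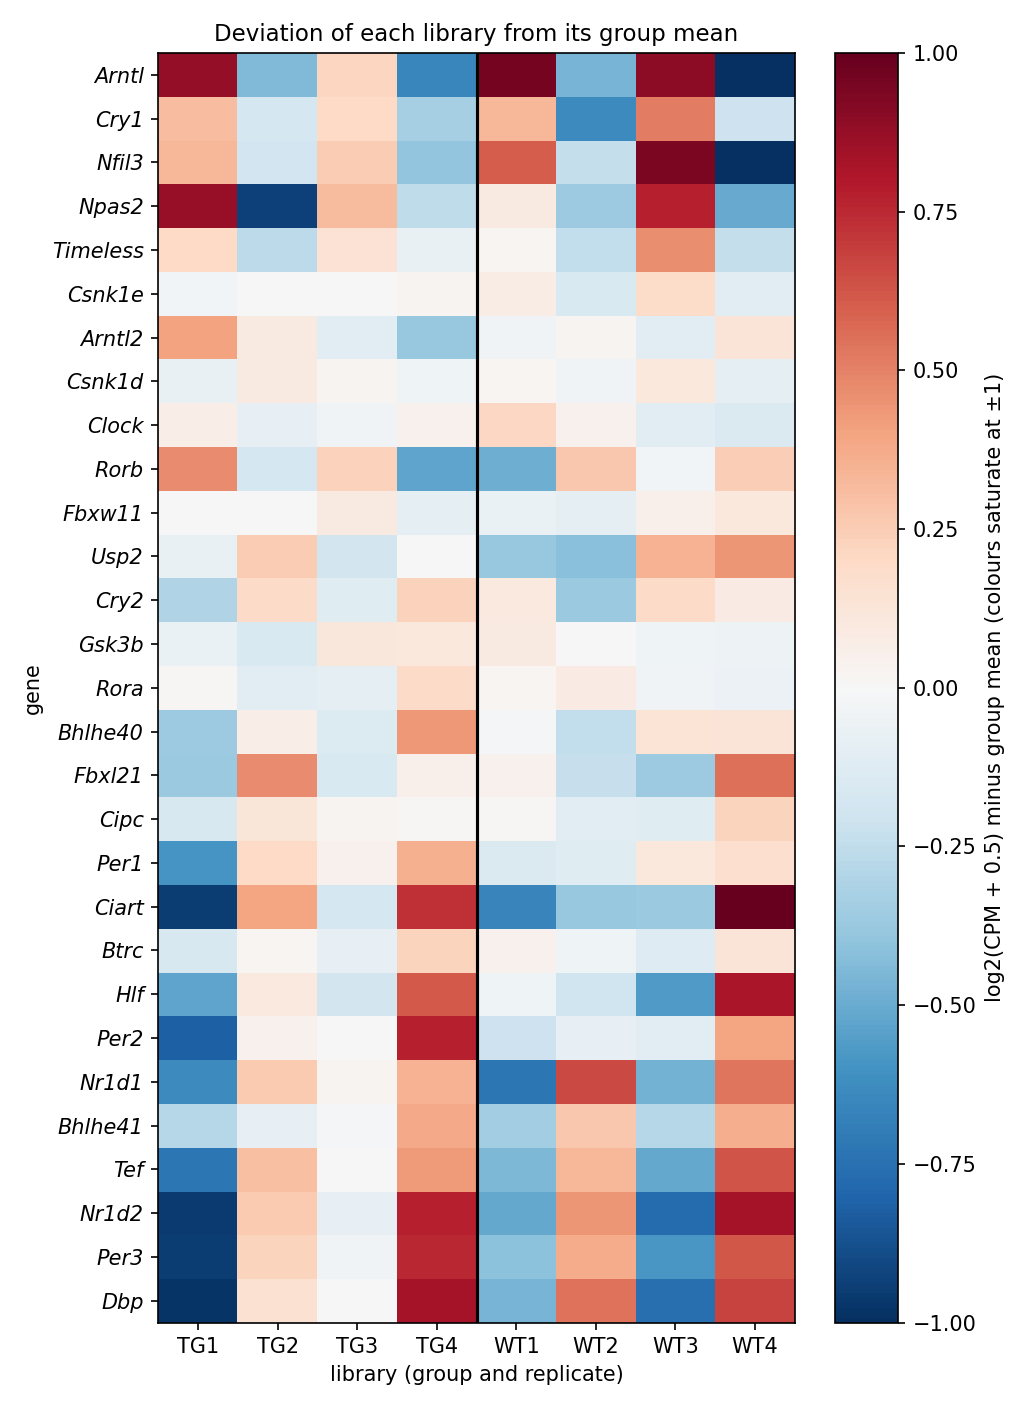
The map shows, for the 10 clock genes and 19 further clock genes (rows, ordered by their correlation with Dbp), how far each library (columns) lay above (red) or below (blue) its group mean on the log2(CPM + 0.5) scale. Arntl, Cry1 and Nfil3 at the top are red where Dbp, Per3, Nr1d2 and Tef at the bottom are blue, in TG replicate 1 and in WT replicates 1 and 3, and blue where they are red in WT replicate 4.

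Other measures moved with this pattern in part. The stromal and mural sum was 6485 CPM in TG replicate 1 and 3348 to 4568 CPM in the other TG libraries, and 1320 and 2798 CPM in WT replicates 1 and 3 beside 844 and 911 CPM in WT replicates 2 and 4. The sum of 10 acinar markers was 36775 CPM in TG replicate 1 and 11258, 5675 and 8242 CPM in TG replicates 2 to 4. TG replicate 3, with a lower ratio of Dbp to Arntl than replicates 2 and 4, had the lowest acinar sum of its group. The acinar sum was 10996 and 10901 CPM in WT replicates 1 and 3 and 5266 and 1170 CPM in replicates 2 and 4. The part of these cells in the clock pattern was not tested. In WT the depth fell as the ratio of Dbp to Arntl rose, from 22499999 gene counts in replicate 3 through 22438756 in replicate 1 and 21971653 in replicate 2 to 16521087 in replicate 4. In TG the 2 smallest libraries, replicates 1 and 4 with 18198296 and 17124766 gene counts, lay at opposite ends of that ratio. The part of depth in the pattern was not tested.

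The promoters were searched for the sequences through which the clock factors are known to act. RefSeq (GRCm38.p6) promoters, from 250 bases before to 50 after a start site, were found for 9 of the 10 genes (none for Per2) and for 16 of 19 further clock genes. No promoter was found for Bhlhe40, Csnk1d or Btrc, so these genes were not searched. They were scanned on both strands for the E-box CACGTG, the D-box TTATGTAA, the ROR element core TAGGTCA, the cyclic AMP element TGACGTCA and the ATF4-type core TGATGCAA. Of all 32851 promoters, 7.15%, 0.938%, 2.61%, 1.79% and 0.895% held these in this order. Among the 10 genes, Arntl held the ROR core, Per1 and Cry1 an E-box each, and Per3 the D-box at 2 places, and no match was found in these windows for the other 5 with a promoter. No match was found for the ATF4-type core in any of these windows. Of the further clock genes, Nfil3 held the ROR core, Timeless the D-box, Hlf the cyclic AMP element, and Tef, Bhlhe41, Ciart and Cipc the E-box. Across libraries, the D-box genes Per3 and Timeless had r = 0.99 and −0.78 with Dbp. Of the E-box genes, Tef (0.97), Bhlhe41 (0.94), Ciart (0.79), Per1 (0.68) and Cipc (0.60) ran with Dbp, and Cry1 (−0.87) ran against it. The ROR core genes Arntl and Nfil3 ran together (r = 0.95). Whether a motif goes with a direction was not tested. Matches overlapped no other match. A match describes the letters only.

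Shown are the ROR core of Arntl and of Nfil3, as the genes among those searched that held it, and the D-boxes of Per3, the promoter with that motif at 2 places, with the motif in capitals. The Arntl stretch holds the match 30 bases after a start site (chr7:113207529-113207558, plus strand), and the others are the 250 bases before a start site (Nfil3, chr13:52981040-52981289, minus strand, Per3, chr4:151044666-151044915, minus strand).
Arntl: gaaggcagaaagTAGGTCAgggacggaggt
Nfil3: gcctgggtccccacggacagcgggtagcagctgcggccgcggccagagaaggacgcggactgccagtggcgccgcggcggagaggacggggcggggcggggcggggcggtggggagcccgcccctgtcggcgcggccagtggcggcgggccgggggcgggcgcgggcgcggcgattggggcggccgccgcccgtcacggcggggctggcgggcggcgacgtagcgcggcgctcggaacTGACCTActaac
Per3: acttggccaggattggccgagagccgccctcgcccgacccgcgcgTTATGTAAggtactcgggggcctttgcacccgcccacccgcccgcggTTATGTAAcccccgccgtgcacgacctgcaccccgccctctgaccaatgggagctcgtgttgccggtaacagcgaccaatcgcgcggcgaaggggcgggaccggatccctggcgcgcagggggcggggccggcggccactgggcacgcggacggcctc
In Nfil3 the match reads TGACCTA because it lies on the other strand.

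Of 19 further genes of the clock, all passed the filter on low counts. There 2 were called higher in TG, Bhlhe40 and Csnk1e, and 1 lower, Bhlhe41 (edgeR), where 20.1% of all tested genes were called. Their median log2 fold change was 0.13, beside −0.00 over all tested genes.

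Bhlhe40 and Bhlhe41 encode the repressors DEC1 and DEC2, which compete with CLOCK and BMAL1 for E-boxes. They went opposite ways. Bhlhe40 measured 24.1, 32.6, 28.3 and 42.3 CPM in TG and 16.04, 13.7, 18.0 and 17.9 CPM in WT, with no overlap. It rose 1.94-fold (log2 fold change 0.96, SE 0.16, adjusted p = 0.000709, edgeR). Bhlhe41 measured 11.99, 13.9, 14.6 and 19.3 CPM in TG and 17.1, 26.5, 17.9 and 28.3 CPM in WT, and TG replicate 4 lay inside the WT range. It fell 1.503-fold (log2 fold change −0.59, SE 0.19, adjusted p = 0.0377, edgeR). Bhlhe41 shares 19.0% of its exon bases with Gm43909, an annotated gene on the opposite strand, and reads of that stretch cannot be told apart. The call of Bhlhe41 was lost with the acinar covariate (−0.35) and without any of TG replicates 1 to 3 or WT replicates 2 and 4 (−0.61 to −0.46). With the endothelial and stromal covariate, Bhlhe40 stood at 0.98 (adjusted p = 0.243) and Bhlhe41 at 0.22 (adjusted p = 0.886, edgeR).

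Ciart (ENSMUSG00000038550) encodes CHRONO, a further repressor of the CLOCK and BMAL1 pair. It measured 4.37, 11.9, 7.81 and 15.1 CPM in TG and 1.69, 2.16, 2.18 and 8.74 CPM in WT, where replicate 4 stood apart from the other WT libraries and overlapped TG. Its log2 fold change of 1.43 (SE 0.63, 95% interval −0.03 to 2.90) missed the threshold (adjusted p = 0.166, edgeR). Ciart was called higher under 4 of 19 other settings. Among them were edgeR without WT replicate 4 (2.27, adjusted p = 0.00172) and edgeR with the acinar covariate (2.35, SE 0.33, adjusted p = 0.000218). With the endothelial and stromal covariate it was not called (3.48, SE 1.19, adjusted p = 0.308, edgeR). The Ciart promoter holds CACGTG at 3 places, more than any other of the clock promoters searched, and is shown for that reason (RefSeq GRCm38.p6, chr3:95882229-95882478, minus strand, the 250 bases before the start site, E-boxes in capitals).
Ciart: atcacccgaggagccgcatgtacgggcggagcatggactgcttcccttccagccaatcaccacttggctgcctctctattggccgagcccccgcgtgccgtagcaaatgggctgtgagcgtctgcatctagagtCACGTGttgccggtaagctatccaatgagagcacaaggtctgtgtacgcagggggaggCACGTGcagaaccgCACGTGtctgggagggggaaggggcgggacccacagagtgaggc

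Of the kinase genes of the clock, Csnk1e, which encodes casein kinase 1 epsilon, measured 52.0 to 54.1 CPM in TG and 37.2 to 46.9 CPM in WT. It rose 1.27-fold (log2 fold change 0.35, SE 0.096, adjusted p = 0.0181, edgeR). Its call was lost with the endothelial and stromal covariate (0.04), with the acinar covariate (0.31), with no filter (0.33) and without TG replicate 3 (0.32), WT replicate 2 (0.29) or WT replicate 4 (0.31). Its relative Csnk1d (log2 fold change 0.03, 95% interval −0.15 to 0.20) and Gsk3b (0.01, −0.18 to 0.20) did not pass the test. Among genes of PER and CRY turnover, Btrc (−0.28, adjusted p = 0.0581) and the deubiquitinase gene Usp2 (0.68, adjusted p = 0.0668) missed it narrowly. Fbxl21 (0.41) and Fbxw11 (−0.07) were not called, nor was Timeless (0.16).

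The D-box factors related to Dbp showed the same swing within groups. Tef measured 36.7, 75.3, 60.9 and 81.9 CPM in TG and 43.3, 74.9, 41.3 and 91.9 CPM in WT, and its log2 fold change was 0.02 (95% interval −0.84 to 0.88). Nfil3, the repressor at the same sequence, measured 26.0, 18.0, 24.5 and 15.6 CPM in TG and 34.7, 19.1, 44.0 and 8.92 CPM in WT, high where Tef was low (log2 fold change −0.35, 95% interval −1.51 to 0.81). Hlf (0.10), Rora (0.22), Rorb (0.79), Arntl2 (0.13), Npas2 (0.78) and Cipc (0.09) were not called either.

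The fit was repeated with the log2 ratio of Tef to Nfil3 as a covariate, a choice made after seeing the data. Both genes had been seen to run with or against Dbp and Arntl, so smaller SEs for such genes were built into the choice. The p-values of this fit do not allow for that choice. The ratio was 0.50, 2.07, 1.31 and 2.40 in TG replicates 1 to 4 and 0.32, 1.97, −0.09 and 3.37 in WT replicates 1 to 4. The SE of the TG against WT log2 fold change then fell from 0.63 to 0.11 for Arntl, from 0.51 to 0.13 for Nr1d2 and from 0.48 to 0.19 for Dbp. Their log2 fold changes were 0.16, −0.20 and −0.21, and of the 10 genes Clock (−0.40, adjusted p = 0.00298, edgeR) was again the only 1 called. Cry2 stood at −0.40 (adjusted p = 0.0518). Of all tested genes, 24.3% were called in this fit.

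In this fit 3026 of all 20509 tested genes were called higher and 1948 lower. Of the 19 further clock genes, which include Tef and Nfil3 themselves, 4 were called higher with the covariate. These were Ciart (1.46, SE 0.25, adjusted p = 0.000432, edgeR), Bhlhe40 (0.93), Csnk1e (0.37) and Npas2, which encodes a stand-in for CLOCK (0.90, SE 0.30, adjusted p = 0.035). Bhlhe41 (−0.61, adjusted p = 0.00185) and Btrc, which encodes an E3 ligase subunit for PER (−0.30, adjusted p = 0.0223), were called lower.

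**Figure D3:**
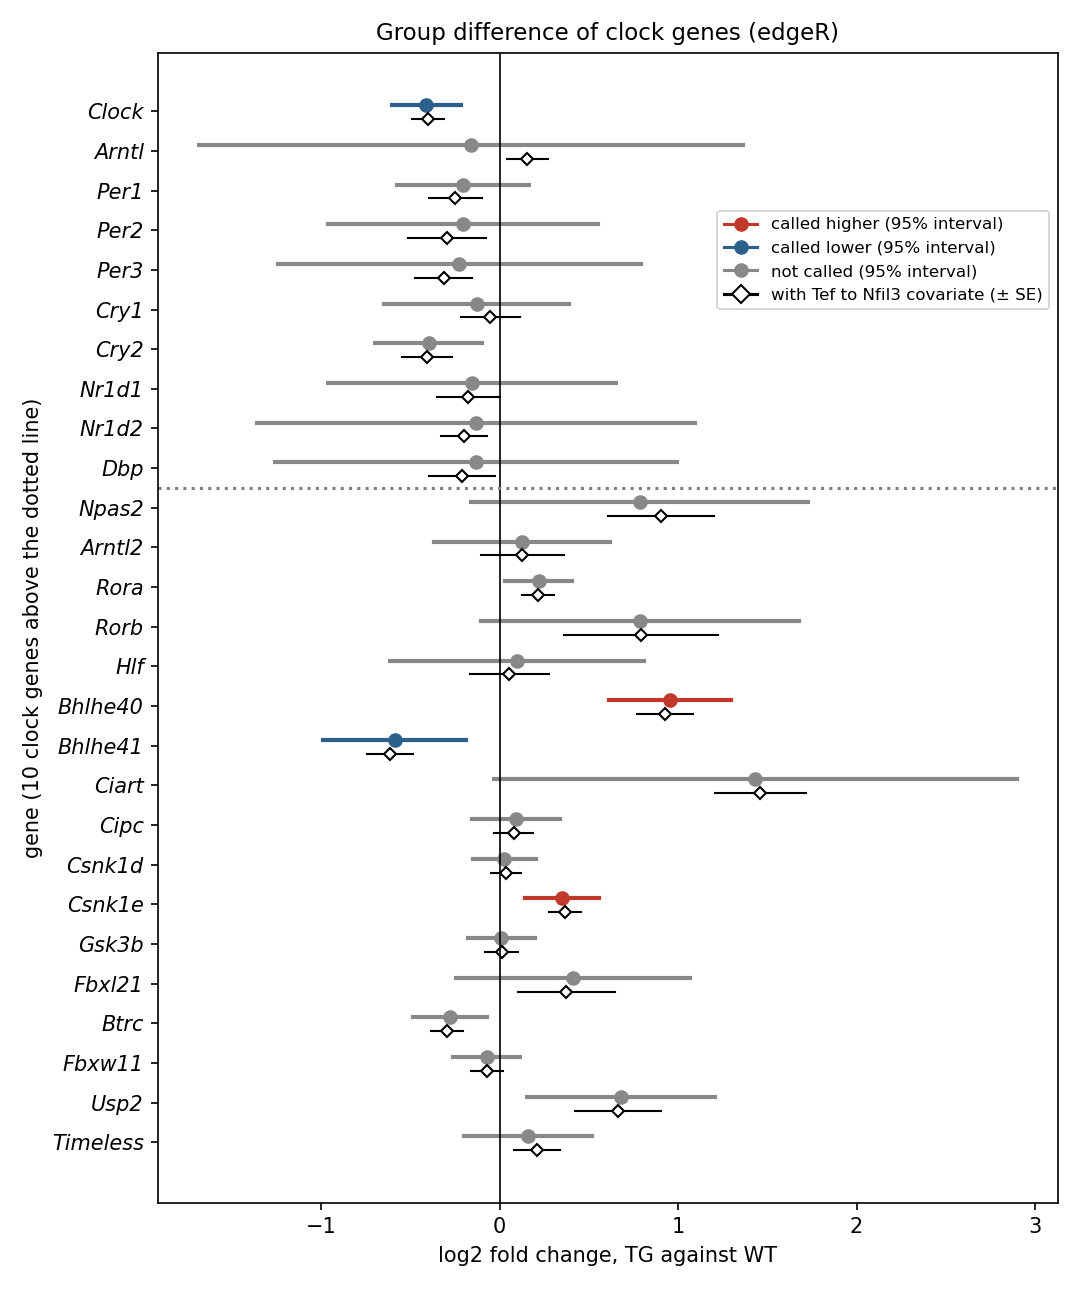
Filled circles give the TG against WT log2 fold change (horizontal axis) of 27 clock genes with its 95% interval, coloured where called, and open diamonds the value ± SE with the Tef to Nfil3 ratio as a covariate (Tef and Nfil3 are left out). Clock, Bhlhe40, Bhlhe41 and Csnk1e are coloured. The bars of the diamonds are SEs and not intervals, so their lengths are not to be set against those of the circles.

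**Figure D4:**
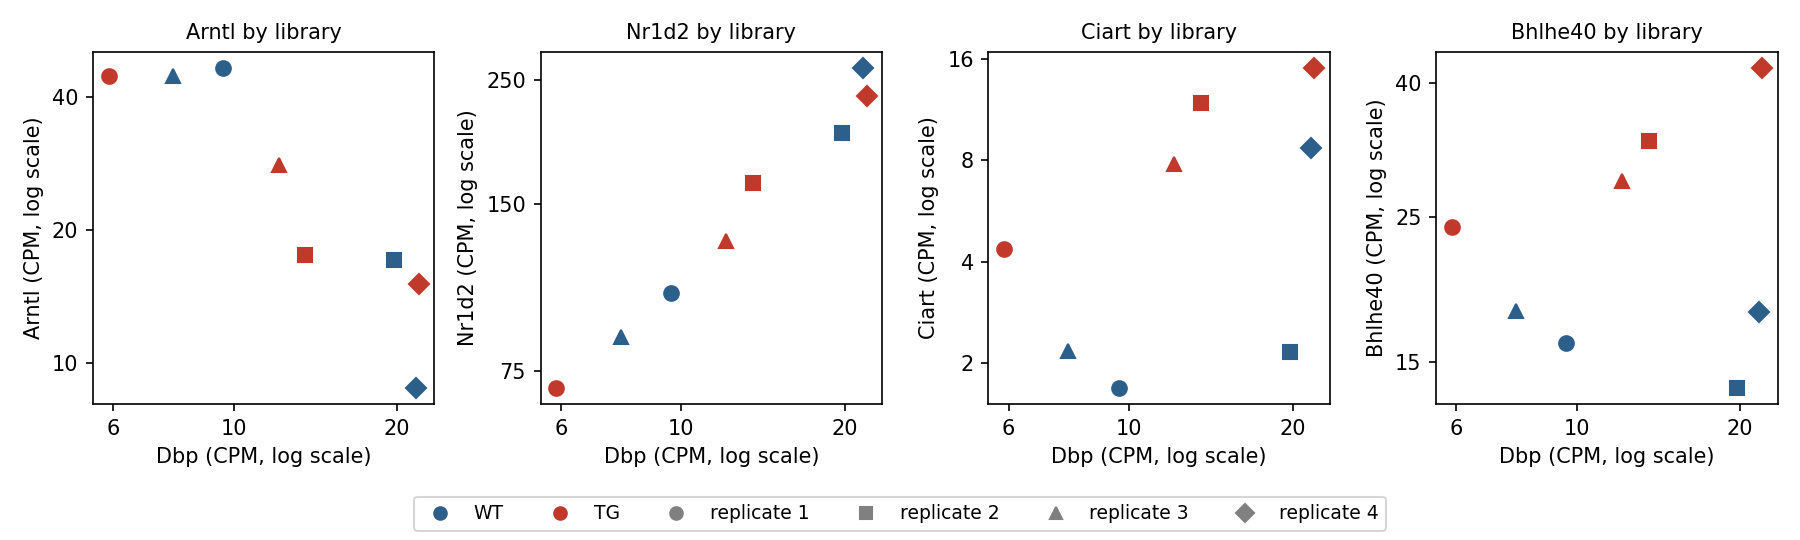
Each point is a library, with Dbp in CPM on the horizontal and Arntl, Nr1d2, Ciart or Bhlhe40 in CPM on the vertical axis (both logarithmic). TG and WT libraries lie along a shared course for Arntl and Nr1d2, while for Ciart and Bhlhe40 the TG points lie above WT points of similar Dbp.

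Genes outside the loop that read the clock or its inputs were described from 3 lists. Of 6 widely rhythmic output genes, Tspan4 was called higher (log2 fold change 0.68, SE 0.19, adjusted p = 0.0201, edgeR) and Lonrf3, a gene of low level here, lower (−1.40, SE 0.28, adjusted p = 0.00233, edgeR, 2.84 ± 0.942 CPM against 7.47 ± 2.42 CPM, SD, n = 4 each). Lonrf3 lost its call in 1 of 19 other settings. The call of Tspan4 was lost with the endothelial and stromal covariate (0.65) and without any of TG replicates 2 to 4 or WT replicates 2 and 4 (0.56 to 0.66). Over all tested genes 12.1% were called higher and 8.06% lower, so these counts of 1 each lie near the share in all genes. Nampt, which makes a precursor of NAD, was at −0.20 (adjusted p = 0.109).

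Of 8 glucocorticoid-responsive genes, 4 were called higher and 0 lower, with a median log2 fold change of 0.90. Over all tested genes 12.1% were called higher. The other members, Fkbp5 (0.24), Klf9 (0.11), Errfi1 (0.17) and Zbtb16 (1.42), were not called. Tsc22d3, which encodes the glucocorticoid-induced protein GILZ, measured 354, 267, 333 and 243 CPM in TG and 92.8, 68.7, 142 and 96.5 CPM in WT. The groups were far apart (log2 fold change 1.58, SE 0.22, adjusted p = 0.00155, edgeR). The kinase gene Sgk1 stood at 96.6 ± 15.2 CPM against 44.0 ± 11.8 CPM, the cell cycle inhibitor gene Cdkn1c at 7.62 ± 2.71 CPM against 3.05 ± 0.469 CPM and the metabolic kinase gene Pdk4 at 56.5 ± 5.67 CPM against 35.8 ± 10.1 CPM (SD, n = 4 each). Per1, which also answers to this hormone, was not among the called genes (−0.21). Tsc22d3, Sgk1, Cdkn1c and Pdk4 were not called by edgeR with the endothelial and stromal covariate (0.57, 0.43, 0.80 and 0.91 in this order, adjusted p = 0.382, 0.623, 0.709 and 0.343).

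Of 11 immediate early genes that answer to cyclic AMP, 2 were called higher and 1 lower, with a median of 0.42. Over all tested genes 20.1% were called, so 3 of 11 lies near that share. Fosb reached 103 ± 19.4 CPM against 51.0 ± 17.6 CPM and Ier2 57.5 ± 14.7 CPM against 32.3 ± 8.63 CPM (SD, n = 4 each). Crem, which encodes a modulator of cyclic AMP responses, stood at 26.7 ± 4.31 CPM against 37.0 ± 4.94 CPM (SD, n = 4 each). The adjusted p-values were 0.0292, 0.0431 and 0.0187 in this order (edgeR). Each call was lost without single libraries, with log2 fold changes of 0.88 to 1.03 for Fosb, 0.71 to 0.85 for Ier2 and −0.45 to −0.38 for Crem in those fits. With the endothelial and stromal covariate they stood at −0.05, 0.08 and −0.40 and none was called.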

How the data were processed

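The authors deposited raw read counts per Ensembl mouse gene, 1 table per library. STAR 2.7.10a, HTSeq 0.11.3 and the build mm39 are named per the submitters' processing notes, without roles or a strand option. Entries for reads given to no gene (29.1% to 35.3% of each table) were left out. Symbols came from GENCODE M21, which named 52081 of 55414 identifiers, and 68 identifiers that share a symbol were kept under their identifier. Promoters are RefSeq GRCm38.p6, so no gene coordinates of the counts are given.

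Genes were filtered with filterByExpr (minimum count 10), scaled by TMM and compared as TG against WT with the edgeR 4.0.16 quasi-likelihood test (robust, group only, R 4.3.3), adjusted by Benjamini-Hochberg over all tested genes. CPM uses effective library sizes, and 3 counts, the limit of a count of 0, equal 0.132 to 0.183 CPM. Intervals are 95%. The fit was tested on simulated counts. Alternatives were DESeq2 1.42.0, limma-voom (limma 3.58.1), other scalings and filters, a replicate block, marker covariates and each library left out. Covariates are mean log2(CPM + 0.5) of a marker list. The ratio of Tef to Nfil3 was added after the data were seen. Same-group libraries differed beyond sampling noise (chi-square per gene 17.3 to 60.7).

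Named are Atf4, the 10 clock genes, 19 further clock genes (2 others of that list are not reported here), up to 3 genes with the lowest adjusted p and any other called gene of the output, glucocorticoid and immediate early lists, genes overlapping a member, and the 5 most like Dbp and Arntl. The uncalled glucocorticoid-responsive genes are named as well. The members and lists were chosen with earlier results of these data known. Figures used matplotlib 3.10.9.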

Additional observations from a re-analysis of the deposited data

Results flagged for a closer look

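Ciart in WT replicate 4 stood at 8.74 CPM, while the next WT library was at 2.18 CPM, a gap of 0.931 of the range of the 4 WT libraries. It was singled out because that gap is above the 95% critical value of Dixon for a sample far from the others. In all, 82 groups (41 genes in TG and WT) were checked this way, and chance alone would single out about 1 in 20. The same library had the lowest Arntl and Nfil3 and the highest Per3, Nr1d2 and Tef of the 8 libraries.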

How the results depend on the processing

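The number of genes called was 4129, 2864 to 4404 with a library left out (2864 without WT replicate 2) and 336 with the endothelial and stromal covariate (138 higher and 198 lower, against 2475 and 1654), a covariate that separates the groups. Of the 10 clock genes, the count called higher was 0 under all 19 other settings, and 2 had an unadjusted p under 0.05. The count called lower was 1, but 2 with DESeq2, median-of-ratios scaling, upper-quartile scaling and no filter, 0 with the endothelial and stromal covariate, and 1 to 2 with a library left out (2 without TG replicate 4 or WT replicate 2). The further gene was Cry2. Among the 19 further clock genes, 2 were called higher, 0 with the endothelial and stromal covariate, 4 with the Tef to Nfil3 covariate and 1 to 3 with a library left out (1 without TG replicate 3 or WT replicate 2). There 1 was called lower, 2 with DESeq2, median-of-ratios or upper-quartile scaling, the Tef to Nfil3 covariate or the replicate block, 0 with the endothelial and stromal or the acinar covariate, and 0 to 2 with a library left out. No paired design is stated: with the replicate number as a block 4673 genes were called, Clock stayed the 1 clock gene called lower, and Ciart was called (1.59, adjusted p = 0.00078). Over all tested genes, deviations of same-numbered libraries correlated at 0.022 to 0.121, and not every library correlated best with its own number. For several clock genes the block narrowed the SE, from 0.63 to 0.19 for Arntl, 0.51 to 0.17 for Nr1d2, 0.48 to 0.20 for Dbp and 0.43 to 0.16 for Per3. For Cry2 it went from 0.14 to 0.15. With the block, Arntl stood at −0.016, Nr1d2 at −0.12, Dbp at −0.14 and Per3 at −0.26, none of them called. The cause of these changes was not tested. Upper-quartile scaling gave 2346 higher and 2127 lower calls, and no filter moved the median of all genes to 0.11. Over 41 named genes and their settings, 660 of 779 values kept direction and side of the threshold and 51 changed sign. With the endothelial and stromal covariate the sign changed for Per2 (0.46), Per3 (1.43), Nr1d1 (1.40), Nr1d2 (1.90), Dbp (1.94), Npas2 (−1.36), Bhlhe41 (0.22), Csnk1d (−0.11), Btrc (0.011), Timeless (−0.74), Thra (−0.065) and Fosb (−0.048). Without a change of sign, the same covariate moved Arntl to −2.50, Cry1 to −1.31 and Nfil3 to −2.15, none of them called. With the acinar covariate the sign changed for Per2 (0.069), Per3 (0.25), Nr1d1 (0.28), Nr1d2 (0.47) and Dbp (0.41), with the Tef to Nfil3 covariate for Arntl (0.16) and Tef (−0.023, itself part of the ratio), with upper-quartile scaling for Tef (−0.030), Csnk1d (−0.0093) and Gsk3b (−0.027), and with no filter for Gsk3b (−0.010). With each library left out in turn, Arntl ran from −0.52 to 0.15, Per2 from −0.55 to 0.012, Per3 from −0.55 to 0.010, Cry1 from −0.32 to 0.057, Nr1d1 from −0.36 to 0.092, Nr1d2 from −0.47 to 0.19, Dbp from −0.51 to 0.11, Arntl2 from −0.036 to 0.21, Tef from −0.16 to 0.25, Hlf from −0.20 to 0.47, Csnk1d from −0.015 to 0.058 and Gsk3b from −0.065 to 0.056. Clock ran from −0.46 to −0.34 and was called in each of these fits.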
